A study of Mus musculus with 2 samples.

Results

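The miR-30 family of mouse is a set of 6 microRNA (miRNA) genes, Mir30e, Mir30c-1, Mir30a, Mir30c-2, Mir30d and Mir30b. They were picked out by symbol among the 1973 miRNA genes counted in forebrain of B6NCrl mouse embryos at embryonic day 12.5, and all 6 had a row in the count tables. MicroRNA sequencing of RNA below 30 nt was carried out on 1 group with 2 biological replicates. Replicate 1 was a pool of forebrains from 120 embryos and replicate 2 a pool from 68 embryos, each of both sexes and described as healthy, with no treatment or engineered allele named. The design therefore holds no contrast between conditions, and the comparison made was that of the pair of genes hosted by Nfyc with the other miR-30 loci.

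MicroRNAs are cut from hairpin precursors, and either arm of a hairpin, named 5p or 3p, can be loaded onto an Argonaute protein. A loaded miRNA lowers the output of messenger RNAs that pair with its seed, bases 2 to 8 from the 5′ end, so miRNAs with a common seed share many targets. Members of the miR-30 family are known for lowering connective tissue growth factor in heart, the Notch ligand Dll4 in endothelial cells and, in human cells, the autophagy protein Beclin 1. Nfyc encodes a subunit of NF-Y, the trimeric factor that binds CCAAT boxes in promoters.

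The mature sequences are shown because they set which reads can be placed in which gene. Mature sequences were available in RefSeq (build GRCm38.p6) for 4 of the 6 members and for Mir384, a gene of the X chromosome that shares the seed. Mir30d and Mir30b are named only. The sequences are written 5′ to 3′ with the seed in capitals.
miR-30e-5p: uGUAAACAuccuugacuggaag
miR-30c-5p (from Mir30c-1 and from Mir30c-2): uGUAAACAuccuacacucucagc
miR-30a-5p: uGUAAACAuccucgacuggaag
miR-384-5p: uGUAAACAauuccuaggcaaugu
miR-30e-3p: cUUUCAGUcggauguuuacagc
miR-30a-3p: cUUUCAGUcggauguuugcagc
miR-30c-1-3p: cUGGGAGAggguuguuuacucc
miR-30c-2-3p: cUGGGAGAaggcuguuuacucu

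The 5p miRNAs all carried the seed GUAAACA, and among the 1738 mature entries searched this seed occurred in 5, those of the 4 members and of Mir384. The seeds of Mir30d and Mir30b were not examined. The 3p miRNAs fell into separate seed groups. Those of Mir30e and Mir30a shared the seed UUUCAGU, and those of Mir30c-1 and Mir30c-2 shared UGGGAGA, which also occurred in miR-6958-5p. Its gene Mir6958 had 29 reads in replicate 1 and 27 in replicate 2.

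Set against miR-30e, counting positions from 1 at the 5′ end, miR-30a differed by U13C in the 5p miRNA and by A18G in the 3p miRNA. Each arm of Mir30e and Mir30a thus differed at 1 of 22 bases, and with 1 difference allowed each matched both hairpins among the 1005 RefSeq hairpins searched. The hairpins of Mir30d and Mir30b were not among those searched, so this kind of ambiguity was not examined for them. Whether the alignment allowed such a difference is not given in the sources used here, and its part in the levels of Mir30e and Mir30a was not tested. MiR-30c-5p differed from miR-30e-5p at 5 of 22 bases without gaps, and the first 12 bases were the same in both. MiR-384-5p differed from miR-30e-5p at 11 of 22 bases, all of them after the seed.

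The miR-30c hairpins are shown whole, with the longest stretch found in both in capitals.
Mir30c-1: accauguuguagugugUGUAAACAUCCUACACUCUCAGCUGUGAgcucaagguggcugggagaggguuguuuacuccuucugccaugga
Mir30c-2: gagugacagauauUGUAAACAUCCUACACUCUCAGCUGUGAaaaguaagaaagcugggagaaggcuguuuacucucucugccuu

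This stretch was 28 bases long. It held the whole of miR-30c-5p, 23 bases, and the 5 bases that follow it in both precursors. A read of miR-30c-5p, also one longer at its 3′ end by up to 5 bases, therefore matches both genes. Of the windows of 22 bases, 7 of 68 in the Mir30c-1 hairpin and 7 of 63 in the Mir30c-2 hairpin occurred in the other. The 3p miRNAs of these genes differed at 3 of 22 bases (G9A, U12C and C22U, with miR-30c-1-3p as the first base given). The deposited tables count reads that match several places apart from the genes, 4213961 in replicate 1 and 4224434 in replicate 2, and how many of these were miR-30c-5p cannot be read from them. The values of Mir30c-1 and Mir30c-2 below are those of assigned reads only.

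**Figure D1:**
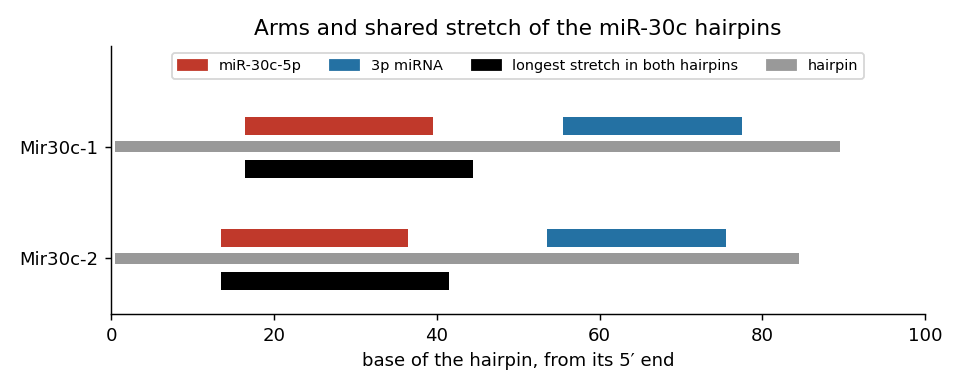
Map of the Mir30c-1 and Mir30c-2 hairpins along their bases from the 5′ end, with the 5p miRNA in red, the 3p miRNA in blue and the longest stretch found in both hairpins in black. The black bar of 28 bases covers all of miR-30c-5p in both hairpins and ends before the 3p miRNA.

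The members lie at 3 places of the mm10 genome, a pair at each. Mir30e (ENSMUSG00000065409.1; chromosome 4, from 120772606 to 120772697, minus strand) and Mir30c-1 (ENSMUSG00000065490.1; from 120769534 to 120769622) lie 2983 bases apart in introns of Nfyc, in 6 annotated transcripts of that gene each. Mir30a (ENSMUSG00000065405.2; chromosome 1, from 23272269 to 23272339, plus strand) lies in no annotated host of GENCODE M21, and Mir30c-2 (ENSMUSG00000065567.1; from 23291701 to 23291784), 19361 bases away, lies in an exon of the long non-coding RNA gene Gm27028. Mir30d (ENSMUSG00000065437.1; chromosome 15, from 68341208 to 68341289, minus strand) lies in an exon of the non-coding gene Gm20732. Mir30b (ENSMUSG00000065476.2; from 68337415 to 68337510), 3697 bases from Mir30d, overlaps an exon of Gm26621 by 16 bases. No other miRNA gene of M21 lies on the same strand within 10 kb of a member. On the opposite strand M21 annotates Mir30f over Mir30e, and Mir30f had no row in the tables. The members had 0 reads on the opposite strand in both libraries, which allows up to 0.692 and 0.682 CPM.

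The libraries held 4333194 and 4397107 reads assigned to a gene on its own strand, and levels are expressed per 1000000 such reads (CPM). Counts are per gene and do not separate the 5p and 3p miRNAs of a hairpin. The neural miRNAs read as a check of the tissue summed to 28580 and 28088 CPM, most of it from Mir92b at 19420 and 19820 CPM and Mir137 at 5127 and 5286 CPM. Of the 9 listed, 8 had a row, and Mir9-1 had none. Mir153 stood at 3304 and 2251 CPM and Mir9-3 at 713.1 and 713.9 CPM, while Mir9-2 had 23 and 26 reads. Of the 8 with a row, 6 reached 10 reads in both libraries, and Mir124a-1 (11 and 6 reads) and Mir124a-3 (9 and 10 reads) did not. Mir124a-2 had 24 and 31 reads, so the neuronal miR-124 genes were close to unread among assigned reads. Reads that match several places stand outside these counts. Their part in the low values of the neural miRNA genes was not tested, so these values do not give the level of mature miR-124. Markers of other cells in the dissected tissue were also present. Endothelial Mir126a stood at 16564 and 21180 CPM, 7 of 7 epithelial miRNAs summed to 13628 and 10008 CPM, and 5 of 5 mesenchymal and mural miRNAs to 8384 and 10714 CPM. Erythroid, leukocyte, liver, muscle and Hox lists each summed to at most 452.1 CPM. In bulk tissue, fewer cells of a type and less miRNA per cell cannot be told apart.

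Nearly all assigned reads of the family came from 3 of the 6 genes. Together the members held 4.74% of assigned reads in replicate 1 (95% exact binomial interval 4.72% to 4.76%) and 5.09% in replicate 2 (5.07% to 5.11%), or 4.91% ± 0.242 (SD, n = 2). With reads that match several places added to the library size, the mean share was 2.50% and the mean level of Mir30e, described next, was 14831 CPM in place of 29161 CPM. Mir30e, Mir30a and Mir30d made up 99.5% of these reads in replicate 1 and 99.4% in replicate 2. Mir30c-1, Mir30c-2 and Mir30b together had 977 reads in replicate 1 and 1233 in replicate 2. Intervals and limits given here cover counting error only, since the sources used here name no molecular identifiers.

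The Nfyc-hosted Mir30e had the highest level, 27506 CPM in the first pool and 30817 CPM in the second, or 29161 ± 2341 CPM (SD, n = 2). It was the gene with the sixth highest count in replicate 1 and the fifth highest in replicate 2, among 1973 genes. Counting error was small against the difference between the pools, with exact Poisson intervals of 27350 to 27663 CPM and 30653 to 30981 CPM. Its neighbour in Nfyc, Mir30c-1, had 308 and 369 reads, or 71.1 and 83.9 CPM, giving 77.5 ± 9.08 CPM and rank 239. Its Poisson intervals were 63.4 to 79.5 CPM and 75.6 to 92.9 CPM, which overlap.

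At the chromosome 1 locus, Mir30a reached 12314 and 12968 CPM, or 12641 ± 462.2 CPM (SD, n = 2), rank 19 of all genes. Mir30c-2, which encodes the same 5p miRNA as Mir30c-1, had 147 and 186 reads, or 33.9 and 42.3 CPM, giving 38.1 ± 5.92 CPM and rank 264. By assigned reads it was the lowest of the members in both libraries. At the chromosome 15 locus, Mir30d stood at 7389 and 6793 CPM, or 7091 ± 421.4 CPM and rank 34. Mir30b had 522 and 678 reads, or 120.5 and 154.2 CPM, giving 137.3 ± 23.85 CPM and rank 213.

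The order of the levels was Mir30e, Mir30a, Mir30d, Mir30b, Mir30c-1 and Mir30c-2, and it was the same in both libraries. No neighbours in this order overlapped. The lowest value of Mir30e was 27506 CPM and the highest of Mir30a 12968 CPM, a 2.23-fold and 2.38-fold difference within the libraries. Mir30a exceeded Mir30d by 1.67-fold and 1.91-fold. The widest step was from Mir30d to Mir30b, 61.3-fold in replicate 1 and 44.1-fold in replicate 2. Mir30b exceeded Mir30c-1 by 1.69-fold and 1.84-fold, and Mir30c-1 exceeded Mir30c-2 by 2.10-fold and 1.98-fold. Reads of miR-30c-5p that match both miR-30c genes are outside these values. The places of Mir30c-1 and Mir30c-2 in the order therefore hold for assigned reads only, and do not give the level of mature miR-30c. A read stands for 1 whole miRNA, so reads were not divided by length. After division by the length of the hairpin (71 to 96 bases) the order of mean levels was the same. Whether different miRNA sequences were read with equal efficiency was not tested, so folds between genes and loci are folds of reads. All genes were read in the same 2 libraries, where an exact two-sided permutation test cannot go below p = 0.5 within pairs and p = 0.333 without pairing, so none is given.

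**Figure D2:**
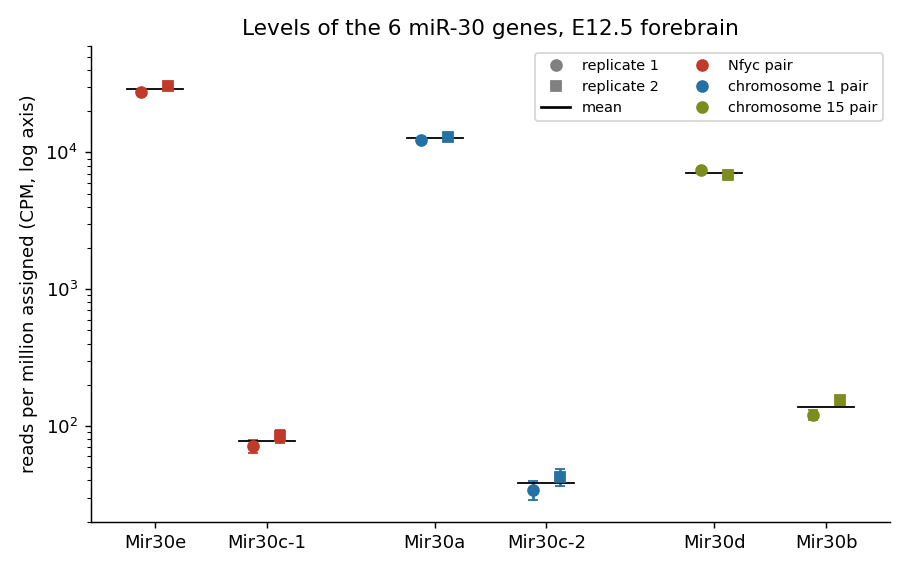
Level of each miR-30 gene in CPM on a log axis, with circles for replicate 1, squares for replicate 2, lines for the mean and bars for the exact 95% Poisson interval; colours mark the locus. Mir30e, Mir30a and Mir30d lie between 6793 and 30817 CPM, and their neighbours Mir30c-1, Mir30c-2 and Mir30b between 33.9 and 154.2 CPM.

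The Nfyc pair held more of the family's assigned reads than both other loci together. Its genes had 119497 reads in replicate 1 and 135873 in replicate 2, against 86047 and 87755 at the other loci. This came to 58.1% of family reads in replicate 1 (95% exact binomial interval 57.9% to 58.4%) and 60.8% in replicate 2 (60.6% to 61.0%), or 59.4% ± 1.85 (SD, n = 2). The chromosome 1 pair held 26.0% and 25.6%, and the chromosome 15 pair 15.8% and 13.7%. The values of the 3 loci did not overlap.

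Set against each locus, the Nfyc pair was 2.23-fold and 2.38-fold above the chromosome 1 pair, with 27577 and 30901 CPM against 12348 and 13010 CPM. It was 3.67-fold and 4.45-fold above the chromosome 15 pair, which had 7509 and 6947 CPM. Over both other loci the Nfyc pair stood 1.39-fold higher in replicate 1 and 1.55-fold higher in replicate 2, a mean of 1.47 ± 0.113 (SD, n = 2). The lead of the Nfyc pair was thus held by Mir30e, which supplied 99.7% of the pair's reads in both libraries. Mir30c-1 and Mir30c-2 together held 0.221% of family reads in replicate 1 and 0.248% in replicate 2, so leaving them out could hardly move the shares. Without them the share of the Nfyc locus was 59.4%. How reads of miR-30c-5p that match both Mir30c-1 and Mir30c-2 would divide between the loci was not tested.

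**Figure D3:**
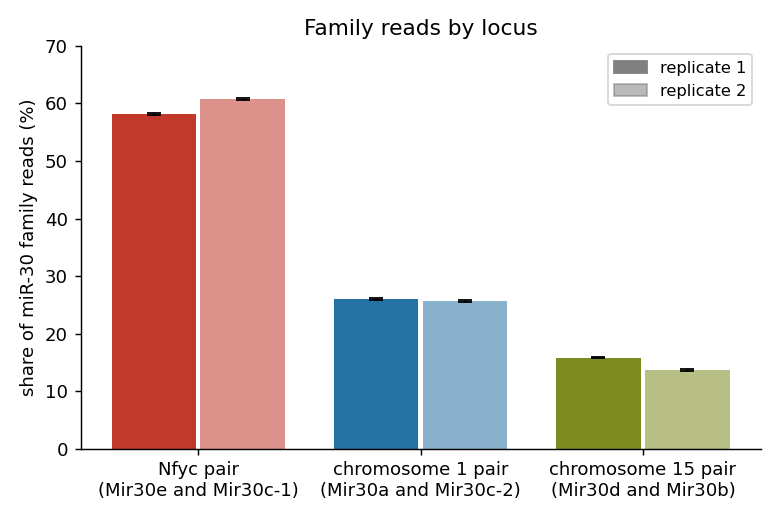
Share of miR-30 family reads in percent at each locus, with dark bars for replicate 1, light bars for replicate 2 and exact 95% binomial intervals. The Nfyc pair stands at 58.1% and 60.8%, the chromosome 1 pair at 26.0% and 25.6% and the chromosome 15 pair at 15.8% and 13.7%.

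Within each locus 1 gene was read far more than its neighbour. Mir30e exceeded Mir30c-1 387-fold in replicate 1 and 367-fold in replicate 2, and Mir30a exceeded Mir30c-2 363-fold and 307-fold. Mir30d exceeded Mir30b 61.3-fold and 44.1-fold. At 2 of the 3 loci the gene with fewer reads was thus a miR-30c gene, whose 5p miRNA lies whole in the stretch found in both hairpins. The part of this shared stretch in the low values was not tested.

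For scale, the same ratio was taken for the 131 pairs of neighbouring tested miRNA genes on the same strand with a gap of no more than 20 kb. This comparison was chosen after values of the members were seen. The median absolute log2 ratio of level was 2.72. A larger ratio than that of Mir30e and Mir30c-1 (8.54) was found in 6 pairs, than that of Mir30a and Mir30c-2 (8.34) in 8 pairs, and than that of Mir30d and Mir30b (5.69) in 26 pairs. The 131 include the 3 miR-30 pairs, so the 8 and the 26 count miR-30 pairs too, and pairs of the same cluster share genes. Reads that match several places are outside the levels of all these pairs, and their part in the ratios was not tested.

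**Figure D4:**
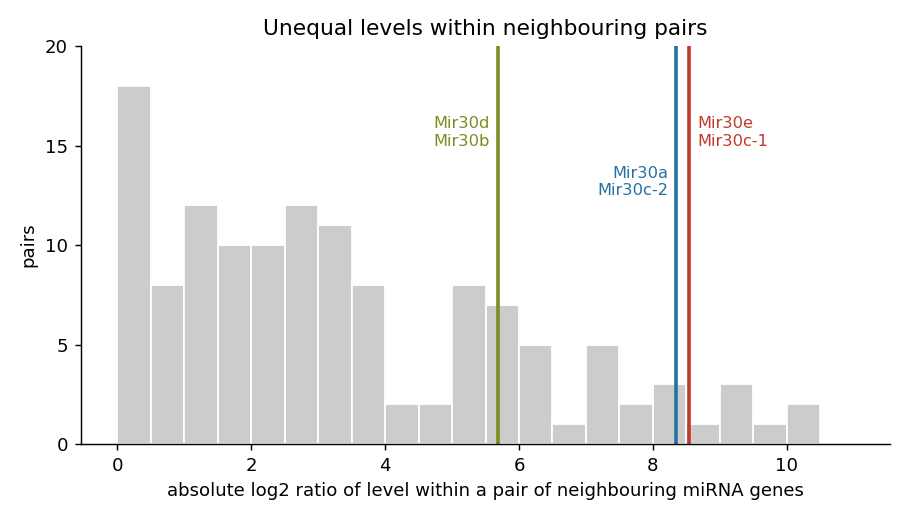
Number of pairs by the absolute log2 ratio of level between neighbouring tested miRNA genes, with lines for the miR-30 pairs. The 131 pairs lie on the same strand with a gap of no more than 20 kb. The lines for the Nfyc pair at 8.54 and the chromosome 1 pair at 8.34 lie near the upper end, and the line for the chromosome 15 pair at 5.69 lies above the median of 2.72.

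Between the pools, 5 of the 6 members had a ratio above 1 of replicate 2 over replicate 1, and none differed by 2-fold. The median log2 ratio over the 511 genes tested was 0.04, so more of them had a ratio above 1 than below 1. Fisher's exact test on reads, which compares these libraries and not conditions, was run over the 511 genes that reached 10 reads when both libraries were summed, with Benjamini-Hochberg adjustment. Of the 6 members, all of which entered the test, 4 had an adjusted p under 0.05, where 32.7% of all tested genes did. Mir30e, Mir30a and Mir30b were higher in replicate 2, where 20.2% of all tested genes were called higher, and Mir30d was lower, where 12.5% were. No member also differed by 2-fold, where 2.74% of tested genes did.

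Mir30e differed by 0.16 on the scale of log2(CPM + 1) (adjusted p = 5.20e-184, Fisher's exact test) and Mir30a by 0.07 (adjusted p = 4.60e-17, Fisher's exact test). Mir30d differed by -0.12 (adjusted p = 9.59e-25, Fisher's exact test). Among the 47 tested genes that averaged 5000 CPM or more, 87.2% were called, and 10 of them had a larger absolute ratio than Mir30e. The coefficient of variation of the 2 libraries was 8.03% for Mir30e, 3.66% for Mir30a and 5.94% for Mir30d, against a common biological coefficient of variation of 16.5% from edgeR over 403 genes.

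The less abundant members had larger ratios. Mir30b differed by 0.35 (adjusted p = 9.67e-05, Fisher's exact test), Mir30c-2 by 0.31 (adjusted p = 0.121, Fisher's exact test) and Mir30c-1 by 0.24 (adjusted p = 0.0854, Fisher's exact test). Of the tested genes with a mean of 10 to 1000 CPM, 34.5% were called. The coefficient of variation was 17.4% for Mir30b, 15.5% for Mir30c-2 and 11.7% for Mir30c-1, so that of Mir30b alone among the 6 lay above the common value of 16.5%.

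The genes of the chromosome 15 pair went opposite ways between the pools, with Mir30d at 7389 and 6793 CPM and Mir30b at 120.5 and 154.2 CPM in replicates 1 and 2. The chromosome 15 pair had a log2 ratio of -0.11 between the pools, the Nfyc pair 0.16 and the chromosome 1 pair 0.08. The fold of the Nfyc pair over the chromosome 15 pair accordingly differed by 0.28 on the log2 scale between the pools, and that over the chromosome 1 pair by 0.09. The levels of endothelial Mir126a and of the epithelial, mesenchymal and mural lists given above also differed between the pools, and their part in the ratios of the miR-30 genes was not tested. Each pool gave 1 library, so pool, dissection, library preparation and sequencing cannot be told apart.

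**Figure D5:**
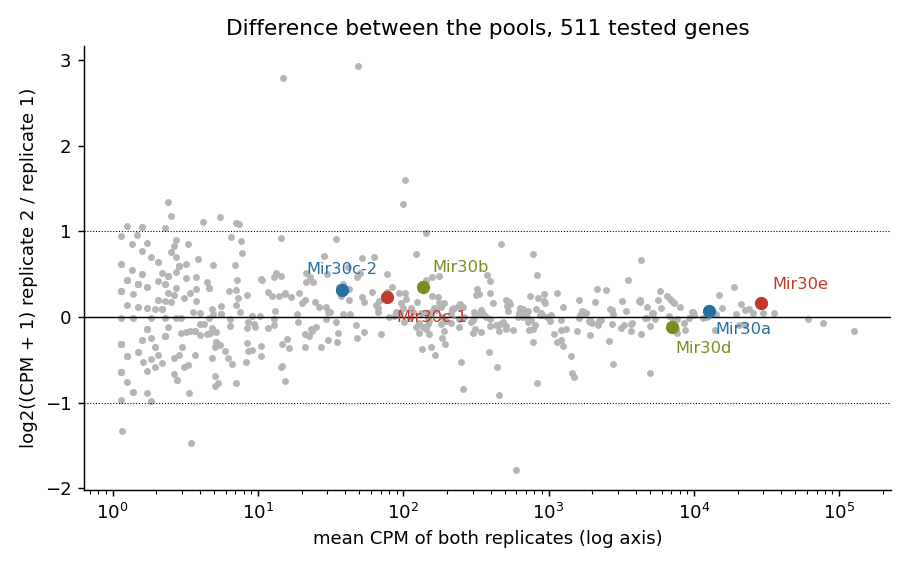
Ratio of level between the pools, as log2((CPM + 1) of replicate 2 over replicate 1), against mean CPM on a log axis for 511 tested genes; grey points are other genes, coloured points the miR-30 genes by locus, and dotted lines a 2-fold difference. The members lie between -0.12 for Mir30d and 0.35 for Mir30b, inside the dotted lines.

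Mir384, which shares the 5p seed but lies outside the family by name (ENSMUSG00000065499.1; chromosome X, from 105344282 to 105344369), had 1411 and 1297 reads, or 325.6 and 295.0 CPM, giving 310.3 ± 21.68 CPM (SD, n = 2). By assigned reads it thus stood above Mir30b, Mir30c-1 and Mir30c-2 and below Mir30d in both libraries. Of the reads of these 7 genes it held 0.682% in replicate 1 and 0.577% in replicate 2. These are shares of gene counts with both arms together, not of reads with the 5p seed. Its log2 ratio of replicate 2 over replicate 1 was -0.14 (adjusted p = 0.0333, Fisher's exact test).

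The genes closest in mean level to the members, by the smallest difference in mean CPM over both libraries, were Mir99b and Mirlet7g on either side of Mir30e, Mir487b and Mir342 around Mir30a, and Mir21a and Mir92-1 around Mir30d. Around Mir30b stood Mir672 and Mirlet7c-1, around Mir30c-1 stood Mir3093 and Mir145a, and around Mir30c-2 stood Mir26a-2 and Mir8112. Of these 12 genes, 10 overlapped their member over the 2 libraries, so their places next to it are not separated beyond the spread. The exceptions were Mirlet7g at 25296 and 26084 CPM, below Mir30e in both libraries, and Mir487b at 14726 and 13266 CPM, above Mir30a in both.

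Against other families with several loci, the miR-30 family held 4.91% ± 0.242 of assigned reads (SD, n = 2), the let-7 and miR-98 genes 4.69% ± 0.268, the miR-181 genes 3.02% ± 0.0159 and the miR-26 genes 2.10% ± 0.154. Within each library the miR-30 share was above that of let-7 and miR-98, with 4.74% against 4.50% in replicate 1 and 5.09% against 4.88% in replicate 2. Both shares were higher in replicate 2, and the difference between the families was of the size of each family's own spread between libraries. Of the 12 let-7 and miR-98 genes, 2 had no row. The leading locus held 59.4% ± 1.85 of family reads in miR-30, 54.9% ± 1.95 in let-7 and miR-98, 70.5% ± 0.290 in miR-181 and 99.8% ± 0.0245 in miR-26. All families were read in the same 2 libraries, where an exact permutation test within pairs cannot go below p = 0.5, so no test of the differences is given. Reads that match several places stand outside all these shares. The families, and the loci within a family, may lose reads in this way to unequal degrees, which was not tested. The order of the families and the shares of the leading loci therefore hold for assigned reads only.

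The hairpins of Mir30e and Mir30a were predicted to fold more tightly than those of their neighbours Mir30c-1 and Mir30c-2. RNAfold gave a minimum free energy per base of -0.563 kcal/mol for Mir30e and -0.524 kcal/mol for Mir30a, against -0.385 kcal/mol for Mir30c-1 and -0.350 kcal/mol for Mir30c-2. The median over the 1005 RefSeq hairpins was -0.406 kcal/mol per base, and 6.77% of them had a lower value than Mir30e and 11.8% a lower value than Mir30a. The hairpin of Mir384 had -0.294 kcal/mol per base, a weaker predicted fold than these 4, and 89.9% of the RefSeq hairpins had a lower value. Its level of 310.3 CPM was above those of Mir30c-1 and Mir30c-2, whose assigned reads leave out reads of miR-30c-5p that match both. These levels are therefore not alike in what they count. Fold is only described for these hairpins and was not tested against level.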

How the data were processed

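Gene counts from 2 small-RNA libraries of embryonic day 12.5 forebrain were used. Per the deposited notes, the authors took the read counts from mm10 alignments and genome annotation M4. For the aligner, counter and trimming, the tools are not stated in those notes or the labels. The deposited tables hold raw counts for both strands, the gene strand and the opposite strand, and the columns were told apart by their values. The gene-strand column, with 97.3% and 97.2% of assigned reads, was used. Library sizes leave out 4 rows without a gene: unmapped reads (17.5% and 16.8% of the total), reads with several matches (37.95% and 37.87%), reads outside any feature (5.49% and 5.93%) and ambiguous reads (0).

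Symbols and positions came from GENCODE M21 on the same build, by Ensembl ID without version, and 1894 of 1973 genes matched. Of the 6 members 5 had the same version, and Mir30a had another. Levels are CPM of gene-strand assigned reads, and ratios between pools are on the log2(CPM + 1) scale. Fisher's exact test was two-sided, adjusted over 511 genes that reached 10 reads when both libraries were summed. This step was tested on simulated data that held counting error only, with calls counted after a fold filter. That check does not cover the spread between real pools or calls made without a fold filter. With 1 group no contrast could be fitted by edgeR's quasi-likelihood test, and edgeR gave the common dispersion. Library sizes of 4333194 and 4397107 reads set a limit of 0.692 and 0.682 CPM (3 reads) for a count of 0.

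The members and lists were chosen with earlier results of these data known. The genes named are the members, Mir384, the gene next above and below each member in mean CPM, and genes of the same strand within 10 kb. Mir6958, Mir30f and the host genes were named after the data were seen. Marker lists covered neural, endothelial, mesenchymal and mural, epithelial, erythroid, leukocyte, liver, muscle and Hox miRNAs. Per the labels each pool is a separate biosample, and each gave 1 library, so p-values compare 2 libraries only. Alternatives were the both-strand column, edgeR TMM and DESeq2 size factors, minimum reads of 1 and 100, pseudocounts of 0.1 and 10 CPM, other library sizes, other family members, division by hairpin length, and leaving out each replicate. Python 3.11.15, SciPy 1.17.1, NumPy 2.4.6, pandas 2.3.3, R 4.3.3, edgeR 4.0.16, DESeq2 1.42.0 and ViennaRNA 2.7.2 were used.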

Additional observations from a re-analysis of the deposited data

Results flagged for a closer look

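Reads that match several places lie outside the gene counts and numbered 4213961 in replicate 1 and 4224434 in replicate 2. They are listed here because they are a signal outside the main measurement and lie above the limit for a count of 0, as any large total would. The series has no control samples. The share of them that came from miR-30c-5p or another miR-30 miRNA was not analysed here.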

How the results depend on the processing

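The 6 members kept their order under each alternative tried for it. Some of these could not change it, since other library sizes scale all members alike and the both-strand column adds no reads to them. Under each alternative tried for these results, 5 of 6 members kept a ratio above 1 between the pools. Likewise 4 of 6 kept an adjusted p under 0.05 in Fisher's exact test. No alternative gave reads that match several places back to a gene. No result reversed. The share of the family in assigned reads, 4.91%, was 5.62% with the most abundant gene taken out of the library size and 2.50% with reads matching several places added to it. The share of the Nfyc pair, 59.4%, was 54.4% with reads divided by hairpin length. The log2 ratio of Mir30c-1 over Mir30e, -8.54, was -8.38 with a pseudocount of 10 CPM. That of Mir30c-2 over Mir30a, -8.34, was -8.04 with a pseudocount of 10 CPM and -8.59 with reads divided by length. Leaving out each replicate gave 4.74% to 5.09% for the family and 58.1% to 60.8% for the Nfyc pair. No paired analysis was possible because the series has 1 group. The precision from depth is lowest for Mir30c-1 and Mir30c-2, at 147 to 369 assigned reads per library. Reads that match several places lie outside these counts, and how many of them match both genes was not analysed.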
